A study of Mus musculus with 12 samples.

Results

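N-CE treated skin is whole back skin of mice that received the extract of cells of the cactus Notocactus ottonis (N-CE), and it was read on 6 of the 12 arrays of the series. These are the arrays whose titles name N-CE for 1 of the 2 dyes, and the channel of that dye was taken. The mice were male C57BL/6J animals, 8 weeks old at purchase, and their backs had been shaved. From the next day the N-CE group received 200 µL of a 10% N-CE solution daily. The vehicle group (VC) received propylene glycol, ethanol and water in 5, 3 and 2 parts, and a 3% minoxidil (MXD) group occupied the other 6 arrays, each also beside VC. Shaving and daily application were thus common to all groups. Skin was taken after 1, 2 and 3 weeks (1W, 2W and 3W), RNA from 6 mice went into the pool of every group and week, and each N-CE pool was read with Cy3 on 1 array and with Cy5 on another. Each week is therefore 1 pool with 2 readings. The ± values below are the SD over these 2 readings, which is technical, and no p-value is given because no week had a second pool. The 4 arrays of a week were on 1 slide, so that week and slide cannot be told apart.

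The hair follicle passes through growth (anagen), regression and rest. In anagen, matrix cells at the base of the follicle divide around the dermal papilla and then differentiate into the hair shaft and the inner root sheath, which hold their own keratins, while melanocytes of the bulb make melanin for the shaft. The shaft is built from hair keratins and cross-linked by keratin-associated proteins (KAPs), and the inner root sheath is hardened by trichohyalin that peptidylarginine deiminases modify. Resting skin of C57BL/6 mice is pale because follicular pigment is made in anagen.

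Between 61.1% and 65.7% of spots were well above background in the N-CE readings, none was saturated, and 86 to 303 spots per reading were left out as outliers. The 43379 transcript spots held 41174 probes. Markers of the keratinocyte, fibroblast, skeletal muscle, adipocyte, melanocyte, endothelium, macrophage, mast cell, T cell, erythrocyte and Schwann cell lists were above background in all 6 readings, apart from Tyr, which was not, and Krt5, whose Cy3 reading at 1W was an outlier, so the RNA was of whole skin and not of follicles alone. Across probes, the Cy3 and Cy5 readings of N-CE correlated with r = 0.995, 0.989 and 0.988 in the 3 weeks in turn. At 2W and 3W each N-CE reading was closer to the VC reading of its own array, with r from 0.994 to 0.995, than to the other reading of the same N-CE pool. The VC pool read on the N-CE arrays also differed from the same VC RNA on the MXD arrays past 2-fold for 210 probes (0.857%) higher and 7 (0.0286%) lower at 2W, and for 176 (0.782%) and 13 (0.0577%) at 3W. In the first week it did so for 1 (0.00398%) and 2 (0.00797%). For such probes a difference between arrays cannot be told apart from one between weeks, and the VC values are given beside those of N-CE.

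Levels below are log2 signals after quantile normalization within each dye, and a change is the difference of such levels between weeks, so that a change of 1 is 2-fold. Levels are given as the 2 readings of 1W, then those of 2W, then those of 3W. A probe was tested where both readings of 1 or both weeks were well above background, and it was called, or said to rise or fall, where both dye readings changed past 2-fold in the same direction. From 1W to 2W, 1699 of 26085 probes rose in N-CE skin (6.51%) and 1072 fell (4.11%). In the second interval, 2W to 3W, only 274 of 25925 rose (1.06%) and 367 fell (1.42%), and over the whole interval from 1W to 3W 1599 of 25213 rose (6.34%) and 1459 fell (5.79%). Most of the movement thus lay between 1W and 2W. Each pool enters 2 of these comparisons, so their values are set side by side only. The median change over all tested probes was -0.10, 0.03 and -0.06, and the median SD over the dyes 0.17, 0.16 and 0.18. With normexp background correction the share of called probes that were higher was 75.4% in place of 61.3% for 2W against 1W, and 19.2% in place of 42.7% for 3W against 2W. It was 73.3% for 2W against 1W when N-CE was referred through the VC readings of the MXD arrays. Without the probes whose VC level differed past 2-fold between the array sets, 1092 rose and 1006 fell from 1W to 2W, and 133 and 136 from 2W to 3W.

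Vehicle skin changed as well. On the same arrays 1314 probes of VC rose from 1W to 2W (4.94%) and 300 fell (1.13%). Of the probes that rose in N-CE, 964 also rose in VC, which is 56.7% of the N-CE list and 73.4% of the VC list, whereas 159 of those that fell did so in both, 14.8% of the N-CE list and 53.0% of the VC list. Read on the MXD arrays, the same VC pools gave 400 higher (1.52%) and 80 lower (0.304%). In the second interval 313 VC probes rose (1.22%) and 496 fell (1.93%) on these arrays, and they include 191 of the probes that rose in N-CE (69.7%) and 248 of those that fell (67.6%). Because these readings share arrays and slides, a shared call does not separate the course of the skin from that of the slide. With 1 pool per group and week, a difference between N-CE and VC was not tested either.

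**Figure D1:**
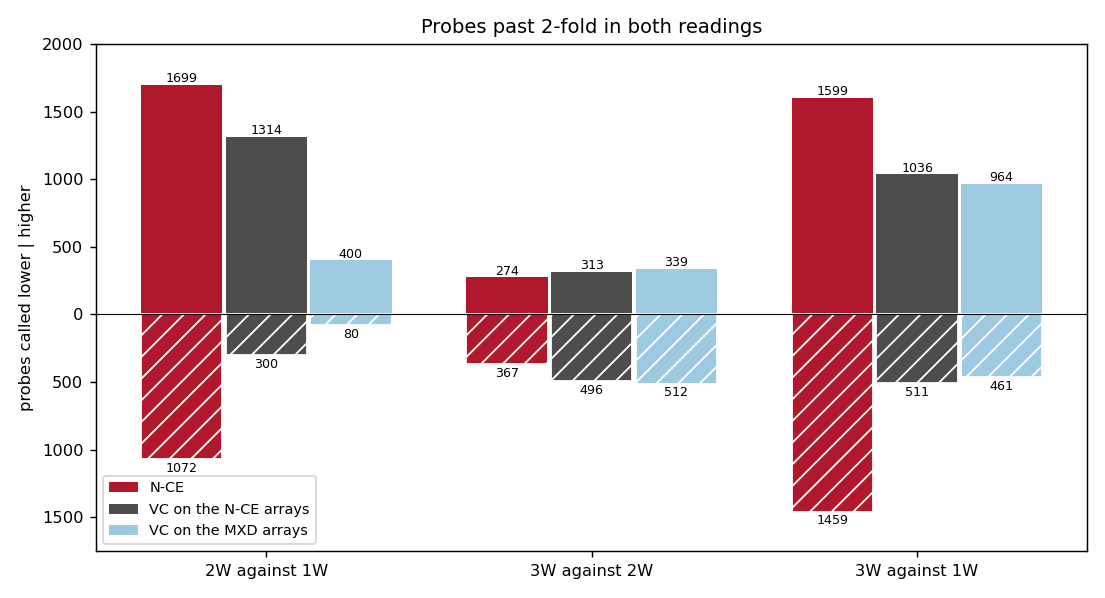
Number of probes past 2-fold in both dye readings for each pair of weeks, higher above the line and lower (hatched) below it, for N-CE and for VC read on the N-CE arrays and on the MXD arrays. N-CE had 1699 higher and 1072 lower from 1W to 2W and 274 and 367 from 2W to 3W.

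The hair shaft keratins, the building proteins of the hair fibre, rose together in N-CE skin. All 12 members on the array rose from 1W to 2W, where 6.51% of all probes did, with changes from 2.10 to 5.14 and a median of 4.52 ± 0.14 against -0.10 for all probes. In bulk skin, more follicle cells and more RNA per cell cannot be told apart. Krt86, a type II keratin of the shaft cortex, had levels of 9.04 and 9.09, then 14.26 and 14.16, then 14.99 and 14.98. All 4 later readings lay above both early ones, a rise of 5.14 ± 0.10 or 35.3-fold at 2W, while VC on the same arrays rose by 2.66. Krt34, a type I shaft keratin, gave 11.26 and 11.47, then 15.69 and 16.18, then 16.14 and 16.32, and rose by 4.57 ± 0.20. Krt33a, another type I member, rose by 4.66 ± 0.08 and Krt87 by 5.10 ± 0.05. The median of the list in VC was 1.63 with 8 called on the same arrays and 1.28 with 9 called on the MXD arrays. Krt84, a hair keratin picked after its values were seen, rose by 4.29 in VC and by 4.52 ± 0.31 in N-CE. Hair keratins and KAPs have close paralogs, so a probe of these families may also take up RNA of a related gene. The VC level of Krt33a differed past 2-fold between the array sets at 2W and 3W.

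KAPs, which fill the space between the keratin filaments, rose as well. Of 43 on the array 40 could be tested, and all 40 rose from 1W to 2W, by 2.02 to 7.03 with a median of 4.99 ± 0.07. Krtap19-2 had levels of 8.09 and 8.08, then 15.08 and 15.14, a rise of 7.03 ± 0.04 or 130-fold. Krtap19-4 rose by 6.88 ± 0.01. Both belong to the glycine- and tyrosine-rich KAPs. Among the brightest members, Krtap16-3 rose by 4.90 ± 0.03 and Krtap4-6 by 2.35 ± 0.20, and Krtap6-1 went from 12.51 and 12.55 to 17.52 and 17.40. The VC median was 2.44 with 37 called on the same arrays, and 2.11 on the MXD arrays. KAP RNA thus rose in both skins. The VC levels of Krtap6-1 and Krtap16-3 differed past 2-fold between the array sets at 2W.

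The inner root sheath and companion layer keratins, which line the channel that guides the growing shaft, rose in N-CE skin. From 1W to 2W they were not called in VC, apart from 1 member. All 6 rose in N-CE from 1W to 2W, by 2.51 to 5.82 with a median of 3.30 ± 0.66. In VC the median was 0.32 with 1 called on the same arrays and -0.15 on the MXD arrays. Krt71, a keratin of all inner root sheath layers, had N-CE levels of 14.19 and 14.69, then 16.94 and 16.97, then 16.82 and 16.87, a rise of 2.51 ± 0.33. Its VC levels were 17.02 and 17.13 at 1W, already as high as N-CE reached later, and 16.07 and 16.87 at 2W. Krt28 rose by 3.71 ± 0.73, Krt75 of the companion layer by 2.65 ± 0.29 and Krt26 by 5.82 ± 0.77.

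To show the regions upstream of genes that moved together, the 250 bases before the start of a few members were taken from RefSeq (GRCm38.p6), which held 7 of the 12 hair shaft keratins on the array, 39 of 43 KAPs, 6 of 6 inner root sheath keratins, 7 of 12 melanin genes and 23 of 27 mitosis genes. The TATA box letters TATAAA, searched on both strands, stood in 5 of the 7 shaft keratin promoters (71.4%), 30 of 39 KAP promoters (76.9%) and 5 of 6 inner root sheath keratin promoters (83.3%), against 3504 of all 27025 (13%). They were found in 1 of 7 melanin promoters (14.3%) and 0 of the 23 mitosis promoters. The letters CTTTGAA, which LEF and TCF factors bind, or the variants CTTTGAT and, with another pair of last letters, CTTTGTT, searched likewise, stood in 4 of 7 shaft keratin (57.1%), 13 of 39 KAP (33.3%), 1 of 6 inner root sheath keratin (16.7%), 2 of 7 melanin (28.6%) and 4 of 23 mitosis promoters (17.4%), against 3284 of all (12.2%). A match is a description of the letters and not of a bound site. The promoters of Krt33b at chr11:100029869-100030118 (minus strand) and Krtap6-2 at chr16:89420112-89420361 (minus strand) are printed 5′ to 3′ as members of their lists with the largest change among those with the motif, with TATAAA in capitals, which begins 47 and 49 bases before the start.
Krt33b: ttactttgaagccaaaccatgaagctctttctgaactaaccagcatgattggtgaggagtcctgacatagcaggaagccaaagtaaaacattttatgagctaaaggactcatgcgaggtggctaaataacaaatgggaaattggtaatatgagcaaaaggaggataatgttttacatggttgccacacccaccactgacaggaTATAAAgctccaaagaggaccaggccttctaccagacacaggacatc
Krtap6-2: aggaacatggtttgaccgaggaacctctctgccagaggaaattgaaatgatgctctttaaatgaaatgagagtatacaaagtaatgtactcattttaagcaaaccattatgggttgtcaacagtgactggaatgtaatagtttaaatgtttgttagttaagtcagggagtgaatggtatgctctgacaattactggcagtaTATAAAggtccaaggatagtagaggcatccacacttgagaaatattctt
Krt33b rose by 5.09 ± 0.30 from 1W to 2W and Krtap6-2 by 6.14 ± 0.38.

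**Figure D2:**
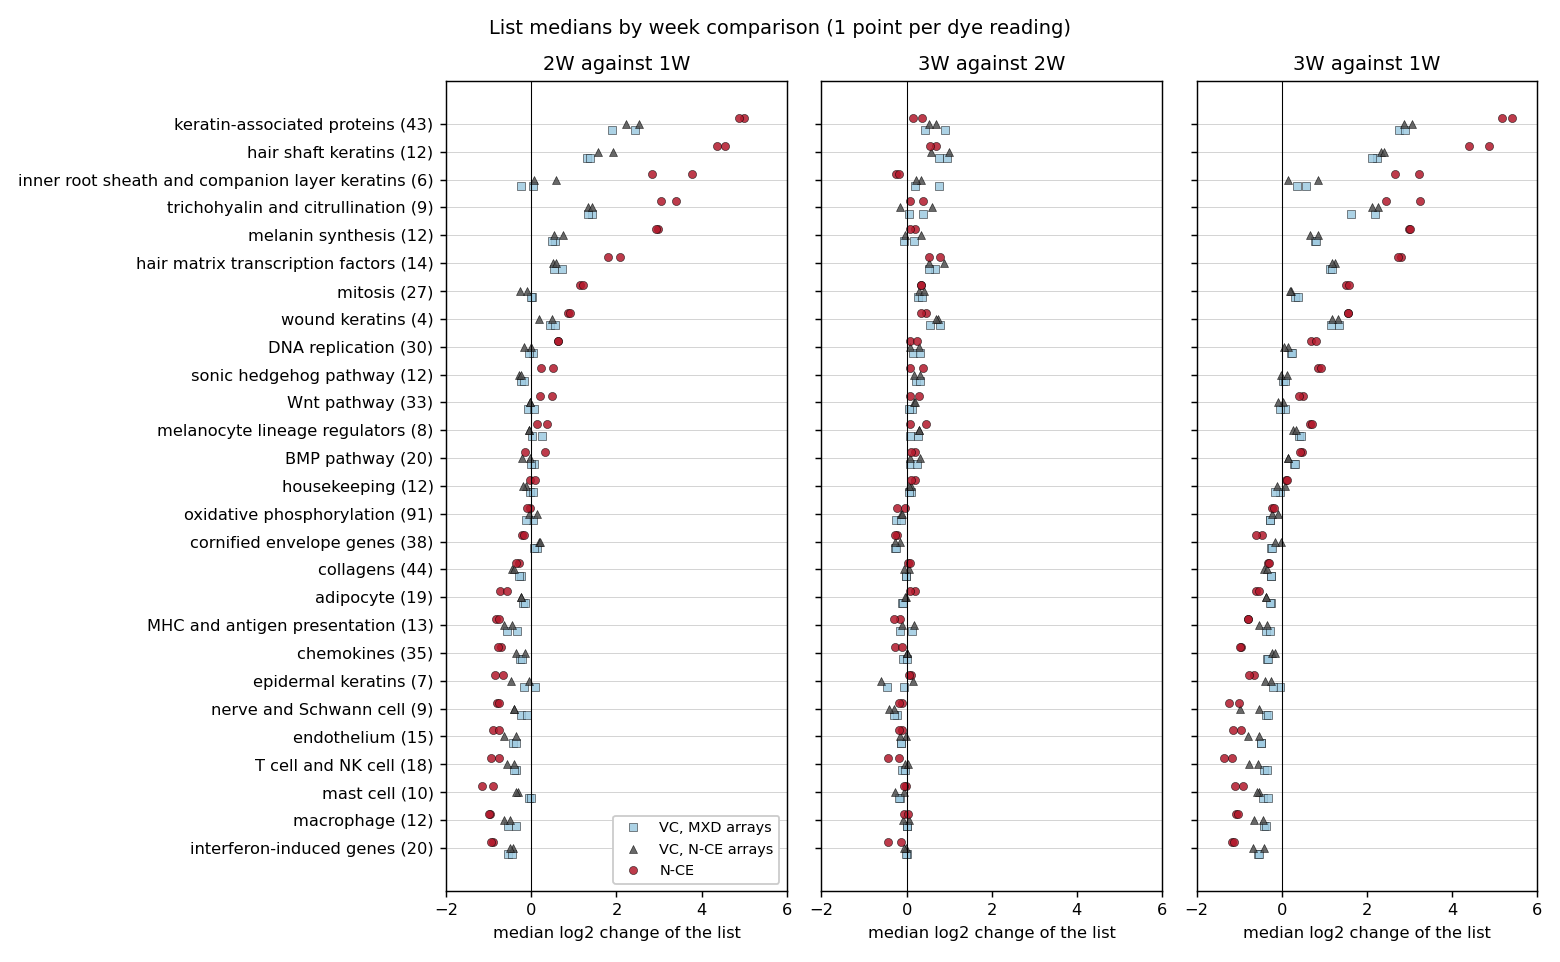
Median log2 change of gene lists (members on the array in brackets) for each pair of weeks, with 1 point per dye reading for N-CE and for VC on the N-CE and the MXD arrays. From 1W to 2W the hair keratin, KAP and melanin lists lie far to the right, the KAPs at 4.99 in N-CE, and the immune, vascular and nerve lists to the left, while from 2W to 3W the points gather near 0.

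Genes that harden the sheath and shaft rose with the keratins. In the list of trichohyalin and citrullination genes 7 of 9 rose from 1W to 2W, with a median of 3.17. Padi3, a peptidylarginine deiminase of the follicle, had levels of 9.88 and 10.05, then 14.54 and 14.38, then 14.99 and 15.01. It rose by 4.49 ± 0.23 while VC rose by 1.38, and Padi1 rose by 3.94 ± 0.04. Tchh, trichohyalin itself, went from 12.54 and 12.74 to 16.27 and 15.35, with dye readings that differed by more than those of Padi3 (3.17 ± 0.80), and VC changed by -0.18. S100a3, a calcium-binding protein of the cuticle, rose by 3.30 ± 0.12.

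Pigment genes rose in N-CE skin. Of the 10 melanin synthesis genes tested, 9 rose from 1W to 2W, by a median of 2.96 ± 0.03, whereas none was called in VC on the same arrays (median 0.61) and 2 on the MXD arrays (median 0.54). In MXD skin 7 of 11 rose, with a median of 1.20. Dct, the dopachrome tautomerase of the melanin pathway, had levels of 11.66 and 11.67, then 14.14 and 14.12, then 14.38 and 14.55. Its rise of 2.47 ± 0.02 stood beside a VC change of 0.22. Oca2, a melanosome membrane transporter, had 5.51 and 5.83, then 9.65 and 9.95, then 9.62 and 10.03. All 4 later readings were above both at 1W, and the rise was 4.13 ± 0.01 against 0.38 in VC. Trpm1, a melanocyte channel gene, rose by 4.32 ± 0.27, Pmel, which forms the fibrils of the melanosome, by 3.06 ± 0.27, and Mlana by 2.31 ± 0.40. Rab38, a traffic protein that was the member not called, gave -0.08 ± 0.21. Tyr, the rate-limiting enzyme, was not well above background at any week.

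Regulators of the melanocyte lineage moved little by comparison. From 1W to 2W, 1 of 8 rose and the median was 0.31, where 6.51% of all probes rose. In VC 0 were called on either set of arrays, with medians of -0.04 on the same arrays and 0.17 on the MXD arrays. The gene called in N-CE was Mc1r, the melanocortin receptor, which was not well above background at 1W and rose at least 3.45-fold. Mitf, the master regulator of the lineage, changed by 0.33 ± 0.32, and Ednrb by 0.06 ± 0.18. The probe of Sox10 had 3W readings of 12.80 and 9.43, which differ too far for a change to be read. Upstream of the melanin genes, the E-box letters CATGTG, the core of sites bound by MITF, stood in 7 of 7 promoters (100%), against 3307 of all 27025 (12.2%), 14 of 39 KAP promoters (35.9%), 3 of 23 mitosis promoters (13%) and 0 of the shaft and inner root sheath keratin promoters. The promoter of Trpm1 (chr7:64153585-64153834, plus strand, GRCm38.p6, 5′ to 3′) is printed as the melanin gene with the largest change among those with the motif, with CATGTG in capitals, which begins 141 bases before the start.
Trpm1: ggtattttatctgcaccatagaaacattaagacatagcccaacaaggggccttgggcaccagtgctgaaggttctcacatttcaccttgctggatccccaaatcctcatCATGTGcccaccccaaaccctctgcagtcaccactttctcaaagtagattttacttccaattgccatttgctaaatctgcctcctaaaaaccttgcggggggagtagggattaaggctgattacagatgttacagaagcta
Levels of Trpm1 were 7.44 and 7.47, then 11.57 and 11.98, then 11.68 and 11.75.

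**Figure D3:**
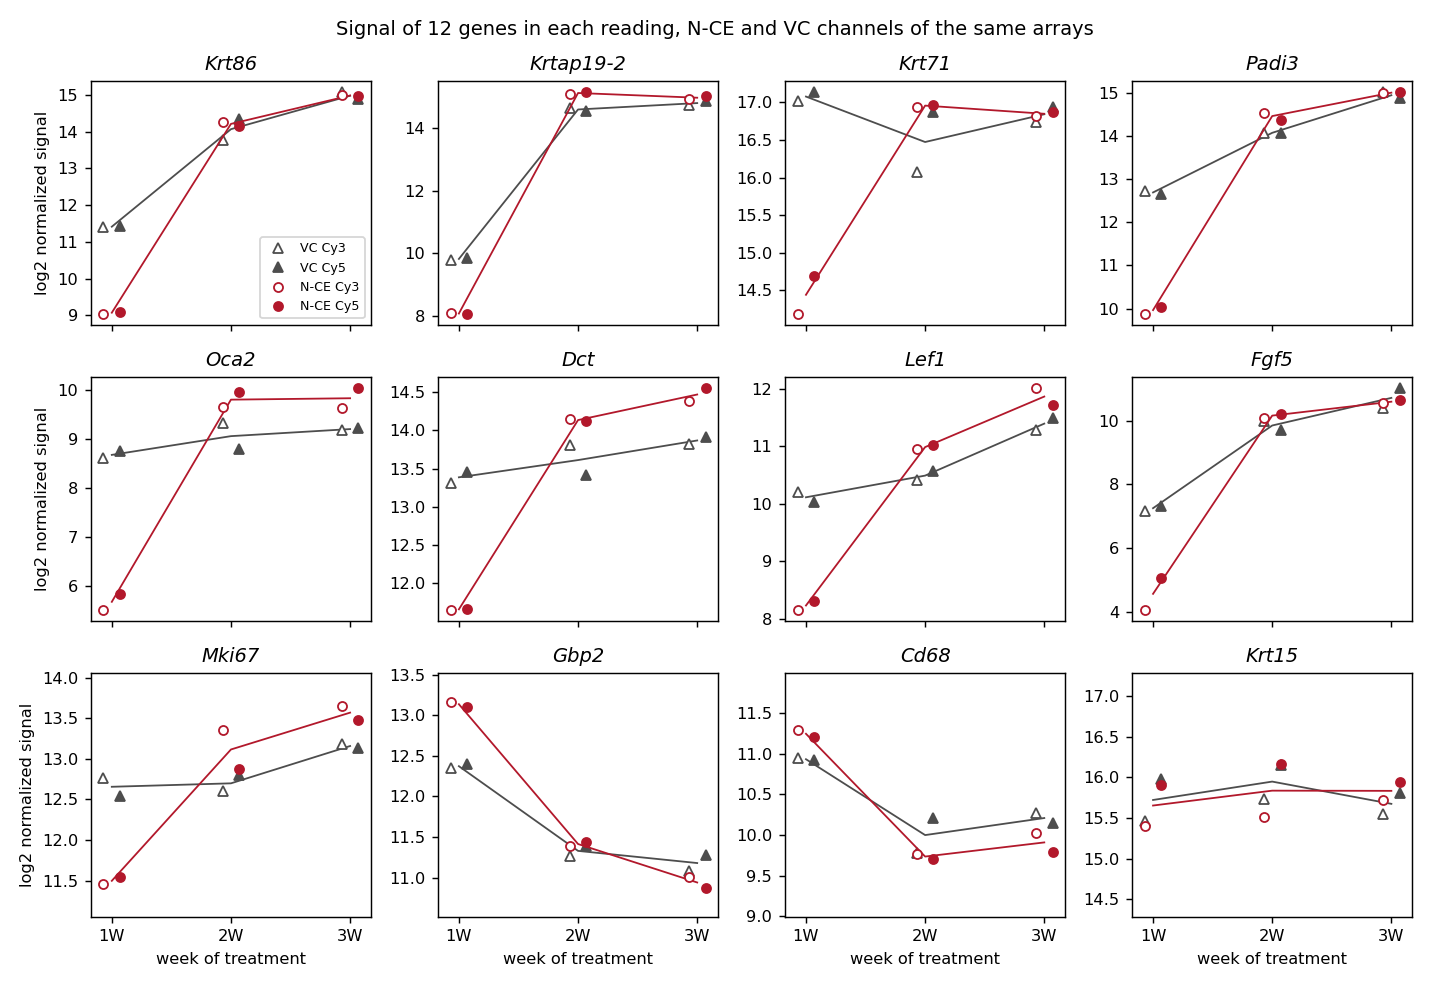
Log2 normalized signal of 12 genes in each Cy3 (open) and Cy5 (filled) reading over the 3 weeks for N-CE (circles) and for VC on the same arrays (triangles), with lines through the means and an axis of its own for each gene. Oca2 in N-CE goes from 5.51 and 5.83 at 1W to 9.65 and 9.95 at 2W, while Krt15 stays between 15.40 and 16.16.

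Transcription factors of the hair matrix also rose. From 1W to 2W 8 of 14 were called, with a median of 2.01, against 1 higher and 1 lower with a median of 0.53 in VC. In MXD skin 11 of 14 rose, with a median of 1.39. The N-CE median was 1.17 with normexp background correction. Lef1, the partner of β-catenin that acts in the precursors of the shaft, had levels of 8.15 and 8.30, then 10.95 and 11.02, then 12.01 and 11.72. It rose by 2.76 ± 0.05, with 0.38 in VC. Msx2, a homeobox gene of the matrix and cortex, rose by 3.55 ± 0.05, and Bambi, a pseudoreceptor that dampens BMP signals, by 2.65 ± 0.16. Gata3, of the inner root sheath, was bright and changed by -0.22 ± 0.21. From 2W to 3W the list had a median of 0.68 with 1 called, Msx1 at 1.17 ± 0.16, and VC gave 1.09 for that gene.

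Signals that pattern the bulb were called in part from 1W to 2W, where 6.51% of all probes rose and 4.11% fell. In the sonic hedgehog list 3 of 12 rose from 1W to 2W, with a median of 0.36 in N-CE and -0.27 in VC. Shh, the ligand made in the matrix, was below the background criterion at 1W and had levels of 7.49 and 7.31 at 2W and 8.32 and 8.11 at 3W. It was at least 5.82-fold higher at 2W and at least 10.2-fold higher at 3W than at 1W, with a VC change of -0.11 from 1W to 2W. Of the receptor side, Smo, the transducer, changed by 0.52 ± 0.20, and Gas1, a co-receptor, by -0.83 ± 0.08. In the Wnt list 7 of 31 rose and 1 fell, with a median of 0.29. Wnt5a, a ligand of the dermal papilla and sheath, rose by 1.67 ± 0.02 with 0.50 in VC, while Ctnnb1, β-catenin, gave 0.84 ± 0.03. Axin2, a target of the pathway, was called at 2.59 ± 0.78, but VC on the same arrays gave 2.19, and its VC level differed past 2-fold between the N-CE and the MXD arrays at 2W and 3W. In the BMP list 3 of 19 rose and 1 fell, with a median of 0.17, which was -0.10 over members above background in both weeks and -0.15 in the Cy5 readings. Nog, an antagonist, rose by 1.34 and Bmp7, a ligand, by 1.51.

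Among growth factors, 3 of 25 rose from 1W to 2W and 3 fell, with a median of -0.18, where 6.51% of all probes rose and 4.11% fell. Fgf5, known as the signal that ends anagen, was not well above background at 1W and had levels of 10.09 and 10.22 at 2W and 10.54 and 10.64 at 3W. It was at least 39.2-fold higher at 2W, the largest rise in the list, and VC rose by 2.59. Fgf22 was called in all 3 comparisons, at 1.21 ± 0.02, 1.15 ± 0.07 and 2.36 ± 0.09, beside VC changes of 0.74, 1.28 and 2.02. Igfbp5, an insulin-like growth factor binding protein, fell by 1.17 ± 0.07. Igf1 changed by -0.49 ± 0.06 and Pdgfa by -0.08 ± 0.06.

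Stem cell and dermal papilla genes stayed close to their 1W levels as lists. Follicle stem cell genes had a median of 0.22 from 1W to 2W with 2 of 16 called, Tbx1 at 1.42 ± 0.14 and Foxc1 at 1.17 ± 0.21. Of all probes 6.51% rose over these weeks. Krt15, a keratin of the bulge, had levels of 15.40 and 15.90, then 15.51 and 16.16, then 15.72 and 15.94. Its change of 0.18 ± 0.11 was below the call at every pair of weeks, and so was that of Cd34 (0.21 ± 0.31 from 1W to 2W). By 3W, 5 of the 16 were called above 1W (10 had a change above 0), including Sox9 at 1.60 and Lhx2 at 1.31, and 1, Npnt, was called below it at -1.21. Of all probes 6.34% rose and 5.79% fell from 1W to 3W. In VC 0 of the 16 were called above 1W and 2 below it on the same arrays, and 0 and 3 on the MXD arrays. Of 11 dermal papilla genes 2 rose from 1W to 2W, with a median of 0.36, which was -0.09 when all probes of a gene were averaged. Corin, a protease of the papilla that was not well above background at 1W, was at least 6.73-fold higher at 2W, and Rspo2, a Wnt agonist, reached 1.59 ± 0.41 at 3W against 1W.

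Proliferation genes rose between 1W and 2W in N-CE skin, where 6.51% of all probes rose. Of 27 mitosis genes 16 rose, with a median of 1.18 ± 0.05, while 0 were called in VC on either set of arrays, where the medians were -0.15 and 0.02. In MXD skin 0 of 26 were called, with a median of 0.50. Mki67, the proliferation antigen, had levels of 11.46 and 11.54, then 13.35 and 12.87, then 13.65 and 13.48. It rose by 1.62 ± 0.40, with 0.04 in VC, whose levels were 12.77 and 12.54 at 1W and 12.60 and 12.80 at 2W. Aurkb, a kinase of chromosome segregation, rose by 2.14 ± 0.13, and Birc5, its partner survivin, by 1.41 ± 0.27. By 3W, 22 of the 27 were called above 1W and 26 had a change above 0, with a median of 1.56, and Bub1, picked after its values were seen, was called below it at -1.27 ± 0.36. Of all probes 6.34% rose and 5.79% fell from 1W to 3W. Of 30 replication genes 6 rose from 1W to 2W, with a median of 0.64, and 3 were called when N-CE was referred through the VC of the MXD arrays. In VC 0 of the 30 were called on either set of arrays, where the medians were -0.13 and 0.02. Mcm10 rose in N-CE by 1.43 ± 0.06 and Uhrf1 by 1.18 ± 0.23, whereas Pcna gave -0.06 ± 0.06. The CCAAT letters, bound by NF-Y, stood in 18 of 23 mitosis promoters (78.3%) against 9314 of all 27025 (34.5%), and those of the cell cycle homology region (TTTGAA or TTCGAA, of which TTTGAA lies within CTTTGAA) in 8 of 23 (34.8%) against 4711 of all (17.4%). Both also stood in promoters of other lists. CCAAT stood in 5 of 7 shaft keratin and 5 of 7 melanin promoters (71.4% each), 3 of 6 inner root sheath keratin (50%) and 12 of 39 KAP promoters (30.8%), and the homology region letters in 6 of 7 shaft keratin (85.7%), 10 of 39 KAP (25.6%), 1 of 6 inner root sheath keratin (16.7%) and 0 of 7 melanin promoters. The promoter of Mki67 (chr7:135716380-135716629, minus strand, GRCm38.p6, 5′ to 3′) is printed as the member with the largest called change among those with the motif, with 3 matches in capitals on either strand, which begin 188, 166 and 141 bases before the start.
Mki67: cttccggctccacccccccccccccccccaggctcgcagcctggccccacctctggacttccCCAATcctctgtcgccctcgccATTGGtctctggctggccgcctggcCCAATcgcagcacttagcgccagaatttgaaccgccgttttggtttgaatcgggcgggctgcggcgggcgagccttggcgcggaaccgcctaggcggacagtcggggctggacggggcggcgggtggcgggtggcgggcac

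**Figure D4:**
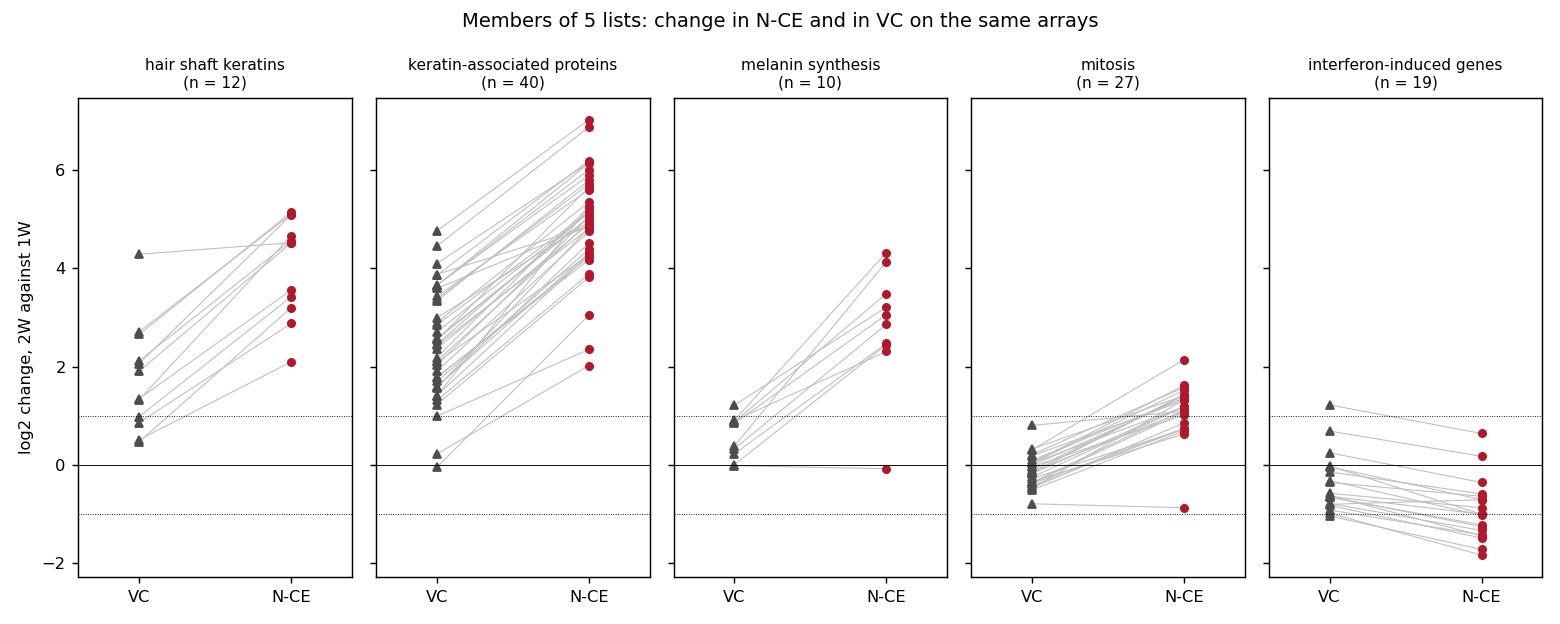
Log2 change from 1W to 2W of each tested member of 5 lists in VC (triangles) and in N-CE (circles) on the same arrays, joined by a line per gene, with dotted lines at 2-fold. The N-CE points of the hair and melanin lists lie above the VC points for most members, and those of the interferon list below.

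Few keratins of the surface epidermis were called. Of 6 epidermal keratins tested 1 fell from 1W to 2W, and the median was -0.70. Krt2, a keratin of the upper layers, had levels of 10.88 and 10.84, then 9.03 and 9.17, a fall of 1.76 ± 0.13 beside a VC change of 0.30. Krt1 changed by -1.28 ± 0.44 and was called only from 1W to 3W, and Krt14 of the basal layer gave -0.43 ± 0.23. Of 4 wound keratins 1 rose from 1W to 2W, Krt6b by 1.44 ± 0.09, and 3 had risen by 3W, among them Krt6a at 1.84 ± 0.19. In VC 0 were called from 1W to 2W, but 3 of the 4 rose from 1W to 3W on either set of arrays. The VC median from 1W to 3W was 1.25 on both, beside 1.56 in N-CE. These keratins are also made in the follicle's companion layer and outer sheath. Cornified envelope genes had a median of -0.18 with 6 of 36 higher, where 6.51% of all probes rose, and VC had 6 higher and 1 lower. Sprr2h (4.93 ± 0.24) and Sprr1b (3.49 ± 0.02) were the furthest up, with VC at 4.01 and 3.36 and, for Sprr1b, a VC level that differed past 2-fold between the array sets at 1W, while Lor, the main envelope protein, gave -0.20 ± 0.15.

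The lists with the lowest medians from 1W to 2W, where 4.11% of all probes fell, held genes of immune cells, vessels and nerve. Of 19 interferon-induced genes 7 fell and 0 rose, with a median of -1.01 ± 0.03, beside a VC median of -0.63 with 1 called. The MXD median was -1.22 with 11 of 18 lower. Gbp2, a guanylate-binding protein, had levels of 13.17 and 13.10, then 11.39 and 11.44, then 11.01 and 10.87. It fell by 1.72 ± 0.08, with -1.04 in VC, and Igtp and Iigp1, GTPases of the same response, fell by 1.49 ± 0.12 and 1.44 ± 0.15. In the list of MHC and antigen presentation 4 of 13 fell, with a median of -0.74, beside -0.55 in VC with 0 called. The MXD median was -1.02 with 4 lower. Ciita, the class II regulator, fell in N-CE by 1.43 ± 0.09 and Psmb8, of the immunoproteasome, by 1.19 ± 0.12, while H2-K1 gave -0.60 ± 0.25 and B2m 0.11 ± 0.02. The last pair, both of class I, were thus not called.

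Macrophage genes fell in 5 of 12 cases, with a median of -1.0. The median was -0.52 in VC on the same arrays with 0 called, and -1.30 in MXD skin with 11 lower. Cd68, a lysosomal protein of macrophages, had levels of 11.29 and 11.20, then 9.77 and 9.70, then 10.03 and 9.79, a fall of 1.51 ± 0.01 with -0.93 in VC. C1qb, a complement subunit, fell by 1.68 ± 0.22, but Lyz2 gave -0.16 ± 0.08. Among 16 T cell and NK cell genes 5 fell and 1 was called higher, with a median of -0.85. VC had a median of -0.54 with 1 lower and 1 higher, and 15 of the 16 lay below 0 there. The MXD median was -1.01 with 6 lower and 1 higher. Gzmb, a granzyme, fell in N-CE by 1.59 ± 0.17 and Cd3d changed by -0.78 ± 0.05, which became a fall of 1.63 ± 0.30 at 3W. The gene called higher was Cd4, at 3.36 ± 1.56 with VC at 3.49 and with VC levels that differed past 2-fold between the array sets, so no change can be read from that probe. Of 26 chemokines 7 fell and 1 rose, with a median of -0.72, beside -0.28 in VC with 2 lower. The MXD median was -1.38 with 18 of 29 lower and 2 higher. Cxcl9 fell in N-CE by 1.80 ± 0.18 with -1.81 in VC, and Ccl5, which recruits T cells, fell by 1.69 ± 0.26 with -0.68 in VC. Cxcl14, which the follicle makes, was the member that rose, by 1.55 ± 0.16.

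Mast cell genes had a median of -0.91 with 3 of 9 lower, and all 9 lay below 0. Among the brightest, Cpa3 gave -1.03 ± 0.20 and Mcpt4 -0.89 ± 0.09. All 15 endothelial genes likewise lay below 0, with 3 called and a median of -0.79, among them Cldn5 (-1.22 ± 0.07) and Pecam1 (-1.21 ± 0.08). So did the 9 genes of nerve and Schwann cells, with 3 called and a median of -0.77, the furthest of which was Cnp at -1.45 ± 0.09. Adipocyte genes had a median of -0.63 with 4 of 18 lower, led by Pparg, the regulator of fat cell identity, at -1.27 ± 0.20, whereas Fabp4 gave 0.23 ± 0.27. In VC on the same arrays the medians were -0.35 for mast cell, -0.53 for endothelial, -0.32 for nerve and Schwann cell and -0.31 for adipocyte genes. There 0 members of these lists were called, but all 9 mast cell and all 15 endothelial genes lay below 0 in VC too. The MXD medians were -1.29 with 5 lower for mast cell and -0.93 with 4 lower for endothelial genes. For nerve and Schwann cell genes MXD gave -0.72 with 2 lower, and for adipocyte genes -0.54 with 0 called. When N-CE was referred through the VC of the MXD arrays the medians of these immune, vessel, nerve and adipocyte lists were still between -1.10 and -0.63, but fewer members were called lower except in the interferon list, which had 9. There were then 3 in the macrophage list, 2 chemokines, 1 each in the MHC, T cell and NK cell, endothelial and adipocyte lists, and 0 in the mast cell and the nerve and Schwann cell lists. The falls in these lists moved together with the rise of the hair lists, and on a scale that is relative to the whole sample. Their part in each other was not tested.

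Other lists gave smaller, mixed or similar changes from 1W to 2W, where 6.51% of all probes rose and 4.11% fell. The fast and general skeletal muscle list had a median of -0.36 with 1 of 23 lower, Ryr1 at -1.1 ± 0.01, and the sebaceous list -0.37 with 1 of 15 lower, Scd3 at -1.22 ± 0.25, beside -1.54 in VC. Among 5 erythrocyte genes 2 rose and 2 fell. Hba-a1, α-globin, fell by 1.25 ± 0.07 and Alas2 by 1.24 ± 0.04, while Slc4a1, the band 3 anion exchanger, rose by 2.40 ± 0.40 and Ahsp, the α-globin chaperone, which was not well above background at 1W, was at least 38.5-fold higher. Members of this list thus moved in opposite directions in N-CE. In VC on the same arrays 1 of the 5 rose and 1 fell, with changes from -1.23 to 2.72. On the MXD arrays 2 rose and 0 fell in VC, with changes up to 2.87. The N-CE median of 0.30 became -0.47 over members above background in both weeks. The 17 clock genes had a median of -0.58 in N-CE with 13 below 0, beside -0.17 in VC. Among them Per1, a core repressor, fell in N-CE by 1.4 ± 0.12 and Nfil3, a repressor too, rose by 1.83 ± 0.28. Matrix proteases and inhibitors had a median of -0.72 with 4 of 18 lower, beside -0.41 in VC with 2 lower. Smooth muscle genes had -0.59 with 0 of 10 called, beside -0.70 in VC. Housekeeping genes had a median of 0.09 with 0 of 12 called, and oxidative phosphorylation genes a median of -0.04 with 4 of 85 higher. Referred through the VC of the MXD arrays, 0 genes of the fast and general muscle, sebaceous and oxidative phosphorylation lists were called.

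Between 2W and 3W few genes of these lists were called, as over all probes (1.06% higher and 1.42% lower). The hair shaft keratins had a median of 0.63 with 1 of 11 higher, the KAPs 0.33, the inner root sheath keratins -0.22 (0.13 when referred through the VC of the MXD arrays), the melanin genes 0.21 and the mitosis genes 0.34 with 0 of 27 called. The 2W and 3W readings of Krt71 (16.94 and 16.97, then 16.82 and 16.87) and of Oca2 (9.65 and 9.95, then 9.62 and 10.03) lay side by side. Lep, leptin of fat cells, rose by 1.47 ± 0.06. Mmp11, a stromal protease, had fallen by 1.34 ± 0.10 from 1W to 2W and rose by 1.69 ± 0.13 from 2W to 3W, so that its levels of 11.14 and 11.28, then 9.87 and 9.87, then 11.47 and 11.65 ended near their start. VC gave 1.74 for the second step. In the interferon-induced list 1 of 19 fell, and in the sebaceous list 2 of 15, of which the latter were 0 when referred through the VC of the MXD arrays.

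Over the whole interval from 1W to 3W, in which 6.34% of all probes rose and 5.79% fell, 11 of 11 hair shaft keratins rose (median 4.62 ± 0.33), as did 38 of 38 KAPs (5.26), 6 of 6 inner root sheath keratins (2.82), 9 of 11 melanin genes (3.00) and 10 of 14 matrix factors (2.76). In VC on the same arrays 10 of 11 hair shaft keratins (2.37), 37 of 39 KAPs (2.96) and 8 of 13 matrix factors (1.28) rose as well. There 1 of 6 inner root sheath keratins (0.45) and 0 of 10 melanin genes (0.71) were called. On the MXD arrays 2 of 6 (0.38) and 2 of 10 (0.79) of these lists rose in VC. In N-CE interferon-induced genes had a median of -1.12 with 8 of 18 lower, T cell and NK cell genes -1.25 with 9 of 16 lower, and chemokines -0.97 with 9 lower. Iigp1, for example, ended at 10.55 and 10.75 after 12.98 and 12.79 at 1W. VC had -0.57 with 1 lower for interferon-induced genes, -0.69 with 1 lower for T cell and NK cell genes and -0.19 with 5 lower for chemokines. Schwann cell genes had -1.17 with 4 lower and endothelial genes -1.04 with 6 lower, each of which became 1 when referred through the VC of the MXD arrays. In VC on the same arrays these lists had -0.77 and -0.64, each with 1 lower. Sebaceous genes had -0.96 with 4 of 15 lower, and -0.88 with 4 lower in VC. Scd3 fell by 2.03 ± 0.07 in N-CE and by 2.54 in VC.

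The genes furthest from 1W at 2W, taken by rank among those measured in both weeks, were Olfr1134 (7.44 ± 0.02), Krtap19-2, Krtap19-4, Krtap14 (6.19 ± 0.40) and Krtap15 (6.15 ± 0.02). Olfr1134, whose probe carries the name of an olfactory receptor, had levels of 7.13 and 6.71, then 14.56 and 14.17, then 14.17 and 14.07, and VC rose by 5.50. The 5 furthest down were Mug1 (-3.10 ± 0.13), a plasma protease inhibitor, Angptl8 (-2.32 ± 0.24), a regulator of lipoprotein lipase, Gbp5 (-2.23 ± 0.34), Ace (-2.14 ± 0.34) and Alb (-2.14 ± 0.27). VC gave -1.88, -0.62, -0.95, -1.36 and -1.23 for these.

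Between 2W and 3W the ranked genes moved in VC on the same arrays by like amounts. Kdsr (3.29 ± 0.23), Kel (2.99 ± 0.48), Defb8 (2.64 ± 0.16), Ric8a (2.43 ± 0.45) and Upk3bl (2.33 ± 0.31) led upwards, with 3.30, 3.08, 2.19, 2.04 and 2.62 in VC. Downwards, Snord33 (-2.92 ± 0.02), Pitpnb (-2.77 ± 0.04), Snora52 (-2.71 ± 0.44), Stra6 (-2.68 ± 0.72) and Anp32a (-2.63) stood beside -3.26, -2.77, -3.07, -2.73 and -2.52 in VC. For Kdsr, Kel, Ric8a, Pitpnb, Stra6 and Anp32a the level of the same VC RNA differed past 2-fold between the array sets in 1 or more weeks, and on the MXD arrays VC gave 1.22 for Kdsr and -0.12 for Stra6. From 1W to 3W, beside Olfr1134 and 4 KAPs, the lowest were Cyp2g1 (-4.21 ± 0.29), Snord33 (-3.17 ± 0.34), Snora52 (-3.12 ± 0.52), Slc16a14 (-3.0 ± 0.26) and Tgtp1 (-2.66 ± 0.04), with VC at -2.89, -2.91 and -2.88 for the first 3, -2.98 for Slc16a14 and -0.89 for Tgtp1. The interferon-induced GTPase Tgtp1 was thus the one among them with a small change in VC.

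Set against VC within each array, which shares the slide and the hybridization, N-CE skin stood below VC at 1W in the lists of hair structure, melanin, matrix factors and mitosis, and near it afterwards. The median log2 ratio of N-CE over VC at 1W was -2.30 ± 0.20 for hair shaft keratins, -2.76 ± 0.24 for inner root sheath keratins, -2.12 ± 0.03 for KAPs, -2.01 ± 0.09 for melanin genes, -1.15 ± 0.19 for matrix factors and -1.04 ± 0.02 for mitosis genes, against 0.03 over all probes. At 2W the same lists gave 0.33, 0.32, 0.35, 0.51, 0.25 and 0.27, and at 3W 0.08, -0.06, -0.04, 0.54, 0.20 and 0.29. The sign at 1W was shared by 40 of 40 KAPs, 11 of 12 hair shaft keratins and 25 of 26 mitosis genes. Other lists of the follicle were closer to VC at 1W, with -0.35 for stem cell genes, -0.29 for the sonic hedgehog list, -0.24 for the Wnt list, -0.06 for the BMP list and 0.03 for dermal papilla genes. Oca2 had ratios of -3.04, then 0.72 and 0.63, and Mki67 -1.20, 0.42 and 0.41. The change of N-CE from 1W to 2W and the ratio at 1W share the 1W pool of N-CE, so these are one observation in part and not 2.

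Immune lists ran the other way at 1W, and so did some lists outside the immune system. The interferon-induced list had a ratio of 0.55 ± 0.01, followed by 0.04 and -0.16 in the later weeks, and 18 of 18 members were above 0 at 1W. T cell and NK cell genes gave 0.42 and mast cell genes 0.42 at 1W, and macrophage genes 0.27, then -0.30 and -0.31. At 1W nerve and Schwann cell genes gave 0.29, endothelial genes 0.28, epidermal keratins 0.26 and adipocyte genes 0.22. The fast and general skeletal muscle list and the sebaceous list each gave -0.16. Ccl5 stood at 1.03, then -0.00 and -0.84, and Iigp1 at 1.03, 0.17 and -0.31. The ratios of the 2 dye-swapped arrays correlated across probes with r = 0.603, -0.169 and 0.353 in the 3 weeks, so at 2W a probe's ratio on 1 array did not foretell that on the other.

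**Figure D5:**
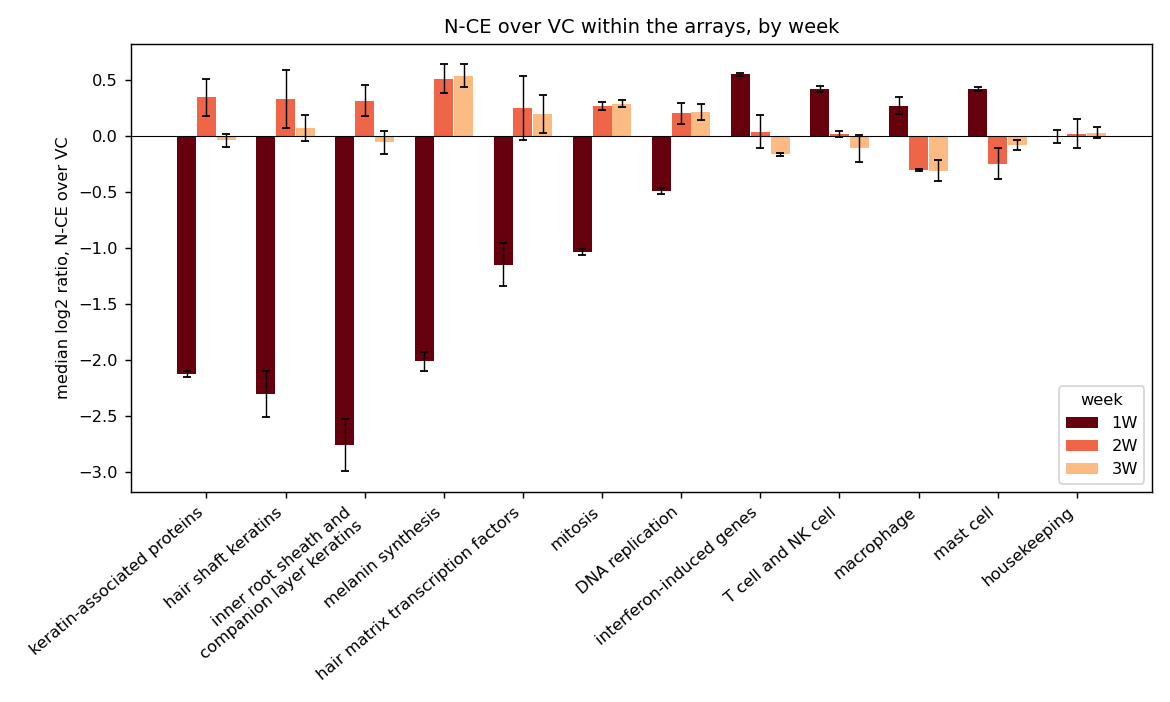
Median log2 ratio of N-CE over VC within the arrays for 12 lists at 1W, 2W and 3W, with bars from 0 and error bars for the SD over the 2 dye-swapped arrays. The hair, melanin and mitosis lists lie below 0 at 1W (KAPs -2.12) and near or slightly above 0 later, and the interferon list is at 0.55 at 1W.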

How the data were processed

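Whole back skin RNA was read on 12 two-colour 60-mer arrays, of which the 6 N-CE arrays were used, and the VC channels of all 12. For some lists the MXD channels of the other arrays are given beside them. The authors deposited one Feature Extraction output per array (version 12.0.3.1 per the file headers, 11.0.1.1 per the labels), and its processed signal is an intensity, background-subtracted and dye-normalized within the array. Probe positions in the files are of mm9. The deposited values normalized by the authors in the series matrix were not used. Probes were named by accession for 27816 of the probes.

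Processed signals were averaged over spots of a probe without outlier-flagged spots, put on a log2 scale and quantile normalized within each dye over all 12 channels (Python 3.11.15, numpy 2.4.6, pandas 2.3.3). Where either reading of a week was not well above background, both readings of that week were held to a floor. The floor was the lowest signal of the channel that was well above background, and values below it were raised to it. The change is then a bound ("at least"). For a gene the probe with the highest mean signal was taken. Ratios within an array used processed signals. Normexp (limma 3.58.1 in R 4.3.3, offset 50) was an alternative, as were 75th percentile scaling, other filters and other call rules. The week calculation was tested on simulated data.

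The labels number no replicates, the arrays of a group were numbered 1 and 2 in accession order, and nothing says that the 2 readings of a pool are more than technical, so no test was made. The number of arrays and the spread over dyes limit the precision. The members and the 40 gene lists were chosen with earlier results of these data known. Genes were named by rank (the 5 highest and 5 lowest called, and in each list the 3 brightest and the 2 with the largest change), and Krt84, Krt33b, Rab38, Msx1, Bub1 and members given in short counts were named after their values were seen. Some members of the lists are not reported here.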

Additional observations from a re-analysis of the deposited data

Results flagged for a closer look

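In 9 cases the median change of a list went one way in both N-CE readings and the other way in all 4 VC readings (on the N-CE and the MXD arrays), and the difference was not tested. From 1W to 2W these were the sonic hedgehog list with 0.36 in N-CE (VC readings from -0.28 to -0.17), the follicle stem cell genes with 0.22 (VC from -0.26 to -0.09), the dermal papilla genes with 0.36 (VC from -0.47 to -0.20) and the cornified envelope genes with -0.18 (VC from 0.06 to 0.21). From 2W to 3W they were the inner root sheath and companion layer keratins with -0.22 (VC from 0.19 to 0.76), the adipocyte genes with 0.10 (VC from -0.10 to -0.03), the neutrophil and acute phase genes with -0.14 (VC from 0.06 to 0.17) and the immediate early genes with -0.10 (VC from 0.09 to 0.16). From 1W to 3W the dermal papilla genes had 0.46 (VC from -0.22 to -0.03). All of these medians lie below 2-fold. The sign in N-CE turned in 3 of the 9 cases, to -0.09 for the dermal papilla genes from 1W to 2W when all probes of a gene were averaged, and, when N-CE was referred through the VC of the MXD arrays, to -0.03 for the same list from 1W to 3W and to 0.13 for the inner root sheath keratins.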

How the results depend on the processing

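No paired analysis was possible because each group holds 1 pool per week and the 2 readings of a pool are technical. Counts of called probes moved most. From 1W to 2W 1699 higher and 1072 lower became 869 and 283 with normexp, 413 and 9 past a log2 of 2, and 1092 higher without probes whose VC level differed between array sets (an alternative added after the data were seen, as was the next). The lower count was 1722 with the mean of readings and 421 when referred through the VC of the MXD arrays. With 1 dye alone they ranged from 2180 to 3074 and from 1708 to 2553. From 2W to 3W 274 and 367 became 28 and 118 with normexp, 731 and 936 with no filter, 446 and 704 with the mean of readings, 39 and 23 past a log2 of 2, and 133 and 136 without the differing probes. The higher count was 118 with both weeks above background, the lower count 611 when referred through VC, and 1 dye alone gave 551 to 808 and 742 to 1104. From 1W to 3W 1599 and 1459 became 811 and 546 with normexp and 415 and 44 past a log2 of 2, the lower count was 2193 with the mean of readings, and 1 dye alone gave 2176 to 3073 and 2061 to 2857. The cause was not tested.

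The medians of the hair, melanin and mitosis lists from 1W to 2W kept their sign. Hair shaft keratins gave 4.25 with normexp, 3.81 when referred through VC and 4.36 to 4.55 with 1 dye, and KAPs 4.76, 4.74 and 4.89 to 4.99. Melanin genes gave 2.50 with normexp, 2.86 with both weeks above background, 2.67 with no filter, 3.03 when referred through VC, 2.74 over all probes of a gene and 2.69 to 2.98 with 1 dye. Mitosis genes gave 1.24 with 75th percentile scaling, 0.97 with normexp, 1.27 when referred through VC and 1.14 to 1.22 with 1 dye, and inner root sheath keratins 2.83 to 3.77 with 1 dye. At 1W the ratio of N-CE over VC was -2.09 for KAPs on quantile values and -1.98 with normexp, -1.63 for melanin genes and -0.88 for mitosis genes with normexp. With 1 array it was -2.17 to -2.13 for KAPs, -2.0 to -1.88 for melanin genes, -1.07 to -1.04 for mitosis genes, -2.43 to -2.14 for hair shaft keratins and -2.87 to -2.54 for inner root sheath keratins. No median of a list past 2-fold changed sign in 210 values of 21 results, whereas 30 of 1200 values over all list medians did. Spots that were not well above background, 34.3% to 38.9% of them per N-CE reading, limit what can be measured, since their changes are bounds.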
